A study of Mus musculus with 6 samples.

Results

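The G protein-coupled receptor kinases Grk2, Grk3, Grk4, Grk5 and Grk6 and the beta-arrestins Arrb1 and Arrb2 were taken by symbol from a table of counts for 45777 genes. All 7 genes were found under these symbols. All 7 also had enough counts to be tested, among 19227 genes tested. The RNA came from the anterior cingulate cortex, an area of the medial frontal lobe, and the mice were of the inbred strain BALB/c. The stress group held 3 libraries from mice given social defeat for 5 days, in which an aggressive mouse repeatedly subordinates another, and the non-stress group held 3 libraries from mice without it. The labels used here give no age or sex. They also leave unsaid if the libraries of a group are separate animals, so p-values measure only how these libraries spread, which may be technical. The title of the series names calcium and cyclic AMP signalling through these receptors as its subject, and stress was compared with non-stress.

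G protein-coupled receptors pass signals from neurotransmitters and hormones to G proteins inside the cell. Kinases of the GRK family phosphorylate the active receptor, and an arrestin then binds the phosphorylated tail, which uncouples the receptor from its G protein and links it to clathrin for uptake. Arrestins bound to a receptor can also hold signalling kinases. In cortex these proteins set how long receptors for dopamine, noradrenaline, serotonin, opioids and glutamate stay active. GRK2 and GRK3 carry a domain that binds free G protein beta-gamma subunits, while GRK4, GRK5 and GRK6 form a separate subfamily that sits at the membrane without it.

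The libraries held 41623899 to 44882821 counts in the stress group and 41976809 to 47212982 in the non-stress group. On principal component 1, which held 34.5% of the variance, the stress libraries lay at -20.4 to -14.9, while non-stress 1 lay at -11.7, non-stress 2 at 37.4 and non-stress 3 at 27.4. Non-stress 1 thus lay nearer to the stress libraries than to its own group, and the labels name no batch. Markers of cortical excitatory neurons were abundant in every library, with Slc17a7, the vesicular glutamate transporter gene, at 1120 CPM or more (counts scaled to the library's TMM-adjusted total), and the summed level of 4 choroid plexus markers was 3.97 to 11.9 CPM in stress and 7.59 to 12.2 CPM in non-stress, most of it Ttr, with Aqp1 at 0.0669 CPM or less. The summed level of 7 microglia markers was 485 to 515 CPM in stress and 503 to 506 CPM in non-stress, with 3 above 0 and 4 below 0 on the log2 scale (stress over non-stress). That of 6 markers of GABAergic neurons was 933.2 to 933.9 CPM in stress and 863 to 933.1 CPM in non-stress. This sum hides values that ran both ways, with 3 above 0 and 3 below 0, from -0.49 for Slc32a1 to 0.27 for Sst. The summed level of 5 astrocyte markers was 854 to 880 CPM in stress and 881 to 925 CPM in non-stress, and their values ran both ways, with 2 above 0 and 3 below 0 on the log2 scale. Of these, Gfap had 13.2, 12.5 and 14.5 CPM in stress and 26.6, 5.34 and 4.73 CPM in non-stress. In bulk tissue, fewer cells of a type and less RNA per cell cannot be told apart. The summed level of 5 pituitary markers was 3.79 to 14.0 CPM in stress and 1.14 to 2.96 CPM in non-stress. Of these, Gh had 8.13, 9.19 and 0.669 CPM in stress and 0.208, 0.128 and 0 CPM in non-stress. Pomc had 3.98, 3.40 and 2.63 CPM in stress and 2.50, 1.43 and 1.09 CPM in non-stress. The part of any of these marker levels in the results on kinases and arrestins was not tested.

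Per exon length, Grk2 was the most abundant of the 7 genes and Grk4 the least. Levels between genes are given as RPKM, which is CPM divided by the length of all annotated exons of a gene in kilobases. Grk2 stood at 27.7 ± 0.349 RPKM in stress and 31.5 ± 4.10 RPKM in non-stress (SD, n = 3 each, as for all levels given this way). Grk6 followed with 16.1 ± 0.735 RPKM in stress and 17.6 ± 1.50 RPKM in non-stress. The arrestins came next, with Arrb2 at 9.82 ± 0.525 RPKM in stress and 10.5 ± 1.50 RPKM in non-stress. Arrb1 had 5.07 ± 0.0703 RPKM in stress and 5.73 ± 0.232 RPKM in non-stress. Grk3 was close to Arrb1, at 4.58 ± 0.128 RPKM in stress and 4.64 ± 0.107 RPKM in non-stress. Grk5 stood at 1.17 ± 0.0626 RPKM in stress and 1.13 ± 0.231 RPKM in non-stress, and Grk4 at 0.613 ± 0.0712 RPKM in stress and 0.449 ± 0.0606 RPKM in non-stress.

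Each gene lay above the next in this order in 6 of 6 libraries. The smallest step was Arrb1 over Grk3, with a mean log2 ratio within a library of 0.23 ± 0.10 (SD, n = 6 libraries) and a range of 0.12 to 0.39. The step with the widest gap was Grk3 over Grk5, at 2.01 ± 0.19. The order was taken from these same libraries, so it is given as a description with no p. The same order was found with the length of the longest transcript in place of all exons, when Arrb1 over Grk3 widened to 0.46. Counts per gene do not show which transcripts were present, so each step carries an error of length that replicates do not measure. In raw counts, which also depend on length, Arrb1 stood above Arrb2, with 2362 to 2501 counts against 1103 to 1287 in stress and 2572 to 3113 against 1051 to 1521 in non-stress.

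**Figure D1:**
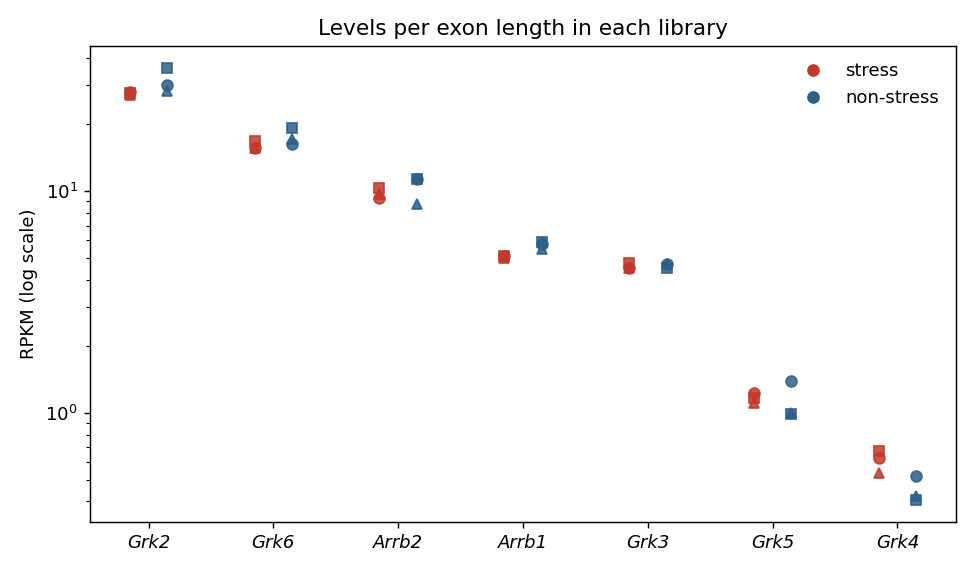
The vertical axis gives RPKM on a log scale for each of the 7 genes, ordered by their mean. Each point is 1 library, with stress left of non-stress, and the shapes mark replicates 1 to 3. Grk2 lies at 27.3 to 36.1 RPKM and Grk4 at 0.405 to 0.675 RPKM over the 6 libraries.

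As shares of the summed RPKM of the 5 kinases, Grk2 held 55.2% ± 0.869 in stress and 56.8% ± 2.09 in non-stress, and Grk6 held 32.1% ± 0.798 in stress and 31.9% ± 1.32 in non-stress. Grk4 held 1.22% ± 0.117 in stress and 0.819% ± 0.159 in non-stress, the kinase with the smallest share in each group. Between the arrestins, Arrb2 held 65.9% ± 1.14 in stress and 64.6% ± 2.58 in non-stress.

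No kinase or arrestin gene passed the quasi-likelihood test of edgeR after Benjamini-Hochberg adjustment over all genes (threshold 0.05), which 1 gene passed in all (0.0052% of those tested). At an unadjusted p under 0.05, edgeR gave 3 of the 7 genes, beside 12.1% of all genes tested. Grk4 was higher in stress, as 5.8% of all genes tested were at that level, and Grk2 and Arrb1 were lower, as 6.27% were. DESeq2 and limma-voom also gave 3 at that level and 0 after adjustment, where DESeq2 called 1.05% of the genes to which it gave an adjusted p. The count at an unadjusted p under 0.05 depended on the setting: it was 1 (Grk4) with a smooth trend on GC content and transcript length taken out of each library, and 4 with replicate number as a block, which added Grk6. With 1 library left out it was 5 without non-stress 1, 1 without non-stress 2, 3 without non-stress 3, and 1, 1 and 2 without stress 1, 2 and 3. Arrb1 was among them each time, and Grk4 was not without non-stress 2, non-stress 3, stress 1 or stress 2. The share of 12.1% is that of the main edgeR fit, and no such share is given here for the other settings. Among all genes, 756 passed the adjusted threshold without non-stress 1, against 1 in the main fit. The member counts of different settings thus have no common background and are not a result about the members. Grk2, Grk4 and Arrb1 were also the 3 genes whose groups did not overlap, as in 17.9% of all genes tested. Log2 fold changes (stress over non-stress) were below 0 in 5 of the 7 genes, with a median of -0.10, while 50.2% of all genes tested were below 0 and their median was -0.00053.

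Grk2, the kinase once named beta-adrenergic receptor kinase and the most abundant in these libraries, spans 4285999 to 4306222 on the minus strand of chromosome 19 (GRCm38, as for all positions). It had 125, 125 and 122 CPM in stress 1, 2 and 3, against 134, 162 and 127 CPM in non-stress 1, 2 and 3. Every stress library lay below every non-stress library, but non-stress 3 was close to stress 1 and 2, and non-stress 2 stood well above the rest. Its log2 fold change was -0.19 (SE 0.08, 95% interval -0.36 to -0.0087, edgeR adjusted p = 0.401). Without non-stress 2 it was -0.07 (edgeR adjusted p = 0.686).

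Grk3, its closest relative and the kinase known for silencing odorant receptors, lies on chromosome 5 (112910478 to 113015660, minus strand). Its levels were the most even of the 7 genes, with 39.0, 41.1 and 39.3 CPM in stress and 40.7, 39.3 and 41.0 CPM in non-stress. The groups overlapped fully. The log2 fold change was -0.02 (SE 0.05, edgeR adjusted p = 0.901), with a 95% interval of -0.13 to 0.10.

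Within each library, the log2 ratio of Grk2 to Grk3 counts was 1.68, 1.60 and 1.64 in stress and 1.72, 2.04 and 1.63 in non-stress. The difference was -0.16, with p = 0.3 in a two-sided exact permutation test and 0.6 after adjustment over 3 ratios, where 3 libraries against 3 cannot go below 0.1. Without non-stress 2 it was -0.04.

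Grk4, a kinase best known from testis and kidney, had the largest fold change of the 7 genes and the fewest counts. It lies on chromosome 5 (34660250 to 34755305, plus strand). It had 126, 142 and 116 counts in stress, against 108, 92 and 86 counts in non-stress. In CPM these were 3.04, 3.26 and 2.59 in stress, against 2.50, 1.96 and 2.04 in non-stress. Every stress library lay above every non-stress library, with stress 3 and non-stress 1 almost level. The fold change was 1.37 over non-stress, or 0.45 on the log2 scale (SE 0.16, 95% interval 0.08 to 0.82, edgeR adjusted p = 0.368), and all 3 stress values lay above all 3 non-stress values in 8.7% of all genes tested. This value lay between 0.38 and 0.57 when any 1 library was left out, and at 0.43 with the GC and length trend removed. DESeq2 gave Grk4 no adjusted p. Its mean level lies at the 31st percentile of the genes tested, where counting error is larger than for the other kinases.

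Grk5, a membrane-bound kinase that calmodulin inhibits and that can enter the nucleus, lies on chromosome 19 (60889560 to 61095968, plus strand). It had 8.69, 8.29 and 7.80 CPM in stress, against 9.84, 6.98 and 7.06 CPM in non-stress. The stress libraries lay between non-stress 1 and the other non-stress libraries. Stress over non-stress was 0.05 on the log2 scale (SE 0.14, 95% interval -0.26 to 0.36, edgeR adjusted p = 0.900). It was 0.23 without non-stress 1 (edgeR adjusted p = 0.231), -0.03 without non-stress 2 and -0.03 without non-stress 3. Grk5 is the only one of the 7 genes that a protein-coding gene overlaps, namely Zfp950, a zinc finger gene on the opposite strand that shares 42129 bases of its span but 0 exon bases. Zfp950 had 21.2, 22.3 and 21.2 CPM in stress, against 21.6, 10.5 and 11.5 CPM in non-stress, so non-stress 2 and 3 were low for both genes. Its log2 fold change was 0.57 (SE 0.22, edgeR adjusted p = 0.386). Whether the counting used strand is not given in the sources used here, and the part of reads from Zfp950 transcripts in the Grk5 counts was not tested.

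Grk6, which in mice is known for restraining dopamine receptors in striatum, lies on chromosome 13 (55445072 to 55460927, plus strand). It had 65.8, 71.1 and 65.7 CPM in stress, against 68.7, 81.0 and 72.6 CPM in non-stress. The groups overlapped at stress 2, and non-stress 2 was again the highest library. The log2 fold change was -0.13 (SE 0.07, 95% interval -0.28 to 0.016, edgeR adjusted p = 0.452), and without non-stress 2 it was -0.06. The log2 ratio of Grk5 to Grk6 counts was -2.92, -3.10 and -3.07 in stress, against -2.80, -3.54 and -3.36 in non-stress. Non-stress libraries lay on both sides of the stress libraries, and the difference of 0.20 had p = 0.5 in the exact permutation test. It was 0.42 without non-stress 1, 0.05 without non-stress 2 and 0.14 without non-stress 3.

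**Figure D2:**
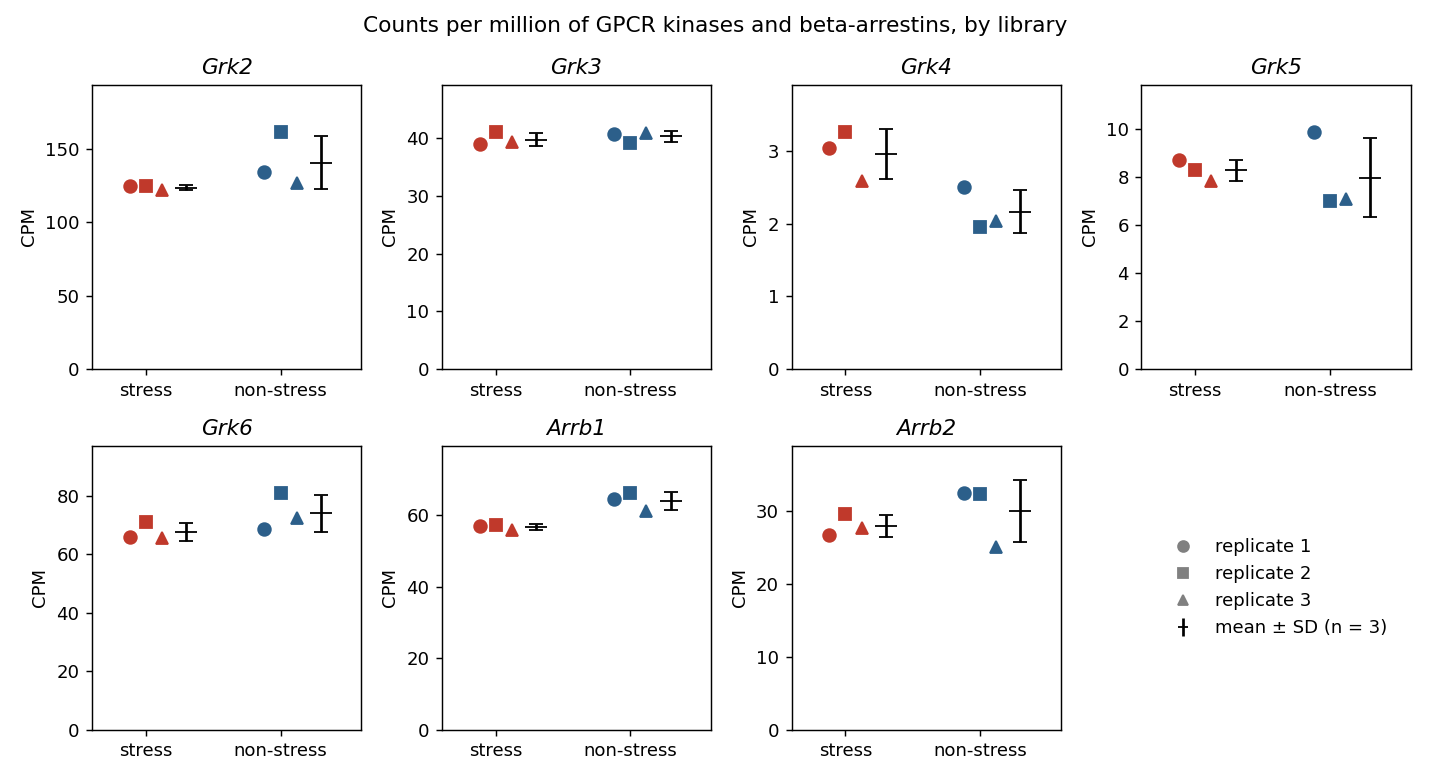
Each panel gives the CPM of 1 gene on an axis from 0, with stress left of non-stress. Points are libraries, shapes mark replicates 1 to 3, and the bar beside each group is the mean ± SD of 3 libraries. Groups do not overlap for Grk2, Grk4 and Arrb1, and the SD of Grk2 is 1.56 CPM in stress and 18.3 CPM in non-stress.

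Promoter sequences from RefSeq (GRCm38.p6) were at hand for the kinases Grk4, Grk5 and Grk6, and they are shown because these relatives of 1 subfamily differ widely in level, from 0.531 RPKM for Grk4 and 1.15 RPKM for Grk5 to 16.9 RPKM for Grk6 over all 6 libraries. Each window runs 5′ to 3′ on the plus strand from 250 bases before a start site to 50 after it. Capitals mark the GC box GGGCGG, which Sp1-family factors bind, and TGACG, the core of the cyclic AMP response element, on either strand. The Grk4 window is chr5:34660129-34660428, the Grk5 window chr19:60889499-60889798 and the Grk6 window chr13:55445079-55445378.
Grk4: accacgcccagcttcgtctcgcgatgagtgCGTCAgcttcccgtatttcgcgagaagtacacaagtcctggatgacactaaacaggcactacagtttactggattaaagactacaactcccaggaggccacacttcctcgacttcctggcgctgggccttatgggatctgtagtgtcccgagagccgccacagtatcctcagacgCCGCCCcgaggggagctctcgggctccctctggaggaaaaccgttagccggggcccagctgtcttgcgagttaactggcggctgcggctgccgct
Grk5: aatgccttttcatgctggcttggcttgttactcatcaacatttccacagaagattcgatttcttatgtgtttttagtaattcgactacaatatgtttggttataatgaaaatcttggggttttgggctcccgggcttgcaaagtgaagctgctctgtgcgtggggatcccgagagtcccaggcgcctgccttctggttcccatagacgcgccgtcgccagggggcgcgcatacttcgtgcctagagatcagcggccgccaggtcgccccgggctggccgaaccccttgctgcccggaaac
Grk6: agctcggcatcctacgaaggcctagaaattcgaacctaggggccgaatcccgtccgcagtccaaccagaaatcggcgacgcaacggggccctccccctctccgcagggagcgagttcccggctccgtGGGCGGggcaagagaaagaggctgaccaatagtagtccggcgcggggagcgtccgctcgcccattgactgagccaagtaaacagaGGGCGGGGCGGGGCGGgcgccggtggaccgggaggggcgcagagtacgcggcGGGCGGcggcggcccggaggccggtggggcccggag

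The Grk6 window printed here held 5 GC boxes, some overlapping, and 37 CG dinucleotides, and its GC content was 70.7%. The Grk4 window held 1 GC box, 1 TGACG match and 22 CG dinucleotides. The Grk5 window held 0 matches to either motif and 19 CG dinucleotides. Of 32851 mouse promoter windows of this length, 35.7% held a GC box and 20.8% held TGACG, and the median number of CG dinucleotides was 7. The palindromic E-box CACGTG, which clock factors bind and 7.15% of windows held, had 0 matches in all 3 windows. RefSeq lists another Grk6 start upstream, and its window (chr13:55444822-55445121) held 0 GC boxes, 0 TGACG matches and 19 CG dinucleotides, at 57.3% GC. That window holds the first base of the gene span given above (55445072), and the printed window lies past it. A further window (chr13:55445081-55445380) nearly repeats the printed one, with 5 GC boxes and 37 CG dinucleotides. Which start was used in these libraries was not tested. These matches describe letters and were not tested for binding or effect.

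Arrb1, which encodes beta-arrestin 1, had the smallest p of the 7 genes. It lies on chromosome 7 (99535147 to 99606772, plus strand). It had 57.0, 57.2 and 55.8 CPM in stress, against 64.6, 66.2 and 61.2 CPM in non-stress. The stress libraries sat close together and all lay below the lowest non-stress library, as in 9.2% of all genes tested. Stress was 1.13-fold lower, or -0.18 on the log2 scale (SE 0.05, 95% interval -0.29 to -0.07, edgeR adjusted p = 0.344), and 1.54% of the genes tested had a p as small or smaller. It stayed between -0.21 and -0.15 when any 1 library was left out. With the GC and length trend removed it was -0.08 (SE 0.05, edgeR adjusted p = 0.505). DESeq2 gave Arrb1 an adjusted p of 0.135. The microRNA gene Mir326 lies in an intron of Arrb1 and had at most 4 counts in any library, but mature microRNAs are not captured by priming on poly(A) tails.

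Arrb2, which encodes beta-arrestin 2, the form that desensitises mu-opioid receptors in mice, lies on chromosome 11 (70432485 to 70440828, plus strand). It had 26.6, 29.6 and 27.6 CPM in stress, against 32.4, 32.4 and 25.0 CPM in non-stress. Non-stress 3 was the lowest of the 6 libraries and the other non-stress libraries were the highest, so the groups overlapped. On the log2 scale, stress over non-stress was -0.10 (SE 0.10, 95% interval -0.32 to 0.12, edgeR adjusted p = 0.709). It was -0.21 without non-stress 3 (edgeR adjusted p = 0.334), and -0.04 without either non-stress 1 or non-stress 2.

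The log2 ratio of Arrb1 to Arrb2 counts was 1.10, 0.95 and 1.01 in stress, against 0.99, 1.03 and 1.29 in non-stress. The groups overlapped, and the difference of -0.08 had p = 0.6 in the exact permutation test. Without non-stress 3 it was 0.0077. With 3 libraries against 3 this test cannot pass 0.05, so it does not show that the balance between the arrestins was the same.

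**Figure D3:**
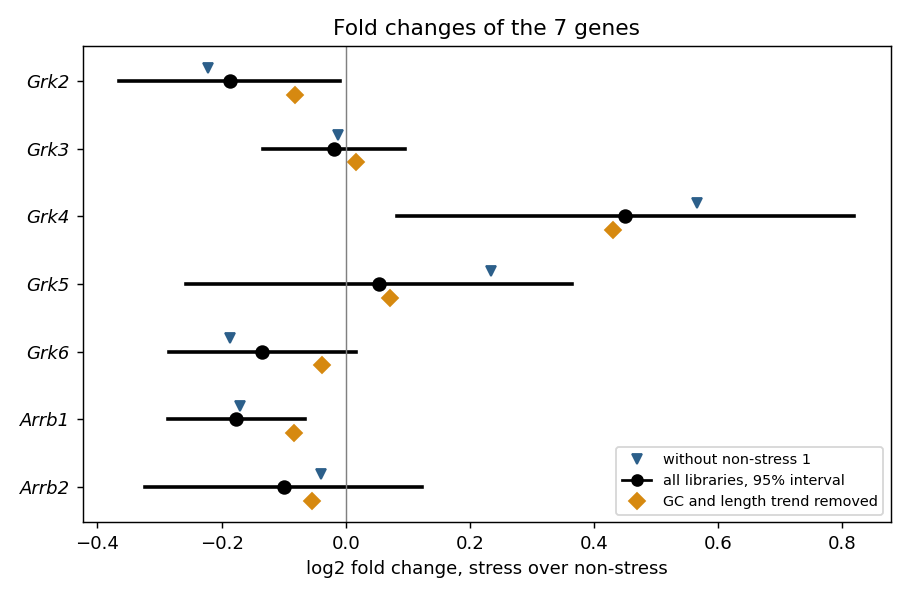
The horizontal axis gives the log2 fold change, stress over non-stress, of each gene. Black points and lines are the edgeR value of all 6 libraries with its 95% interval, triangles leave out non-stress 1, and diamonds have the trend on GC content and transcript length removed. Intervals that are not adjusted for many genes lie off 0 for Grk2, Grk4 and Arrb1. The diamonds of all genes but Grk5 lie nearer to 0 than the points, only slightly so for Grk4 and on the other side of 0 for Grk3. The trend was fitted to these same libraries, so a group difference that follows GC content or length is taken out with it.

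The fold changes are set here beside the GC content of the transcripts, and the part of GC content in them was not tested. The 4 genes of highest GC content, Grk6 (57.1%), Grk2 (56.7%), Arrb2 (55.7%) and Arrb1 (53.5%), had log2 fold changes of -0.13, -0.19, -0.10 and -0.18. Grk3 (49.8%) was near 0 at -0.02, and Grk5 (48.4%) and Grk4 (45.2%) were above 0, at 0.05 and 0.45. The value of Grk5 fell below 0 without non-stress 2 or non-stress 3. Over all genes tested with a known sequence, the median log2 fold change was -0.06 in the tertile of highest GC content and 0.04 in the tertile of lowest. By library, the median of the high-GC tertile relative to the mean of all libraries was -0.045 to -0.016 on the log2 scale in the stress libraries, against -0.019, 0.090 and 0.0019 in non-stress 1, 2 and 3. The trend was fitted to each of these same libraries, so a group difference that follows GC content or length is taken out with it. A move toward 0 in genes of high GC content was thus built in on the whole and is no separate check. With the trend removed, the log2 fold changes were -0.08 for Grk2, -0.04 for Grk6, -0.08 for Arrb1, -0.05 for Arrb2 and 0.02 for Grk3, a change of sign for the last. Those of Grk4 and Grk5 were 0.43 and 0.07, so Grk5 moved slightly away from 0. The removal went past 0 for genes of low GC content. The median over all genes was then 0.0036 in the tertile of highest GC content and -0.037 in the tertile of lowest.

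**Figure D4:**
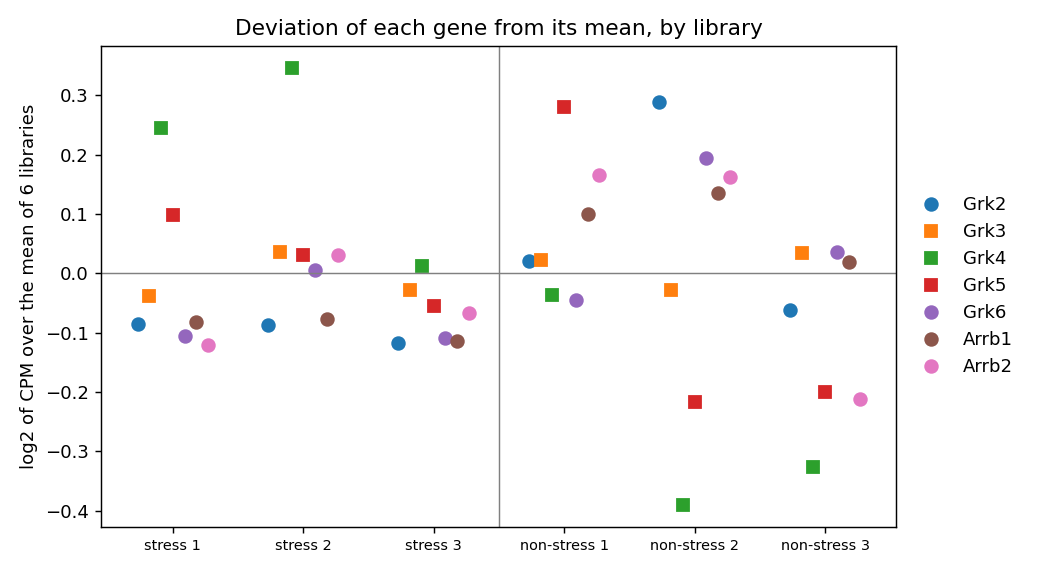
The vertical axis gives the log2 of CPM over the mean of the 6 libraries for each gene, with stress libraries left of non-stress libraries. Circles are the 4 genes of highest transcript GC content and squares the other 3. In non-stress 2, all circles lie above 0 (0.13 to 0.29), and Grk4 and Grk5 lie at -0.39 and -0.22.

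Across the 6 libraries, the genes whose log2 CPM followed each member most closely were read from 9569 other genes of at least 10 CPM, as a description without a test. Grk2 was matched best by Ctbp1, a transcriptional corepressor gene, and Epb41l1, a membrane skeleton gene (Pearson r = 0.997 for both). Grk6 was matched by Fam214b (0.996) and Gabbr2, a GABA-B receptor subunit gene (0.994), and Arrb1 by Cand1, a regulator of cullin ubiquitin ligases (0.996), and Zfp335 (0.994). Grk3 had the lowest best match, Fam114a2 (0.978), followed by Blzf1 (0.974). Grk5 was followed by Itfg1 and Chmp2b (both 0.993), and Arrb2 by Uck2 (0.993) and Nifk (0.991). So many candidates over 6 libraries that share their depth and composition give high values to any gene. Among the members, Grk2 and Grk6 had r = 0.86 and Grk2 and Arrb1 r = 0.84, while Grk4 and Arrb1 had r = -0.72.

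The genes that act with these kinases and arrestins did not pass either. Of 86 genes in 8 lists of related families and partners, 81 were tested and 0 passed the edgeR threshold, while 9 had an unadjusted p under 0.05 (4 higher, 5 lower in stress). That is 11.1% of them, beside 12.1% of all genes tested. DESeq2 also called 0.

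Of the visual relatives, Grk1, rhodopsin kinase, was at 0 counts in every library. The visual arrestin gene Sag had 3.77 to 5.11 CPM in stress and 3.60 to 4.33 CPM in non-stress. Its CPM was above that of Grk4 in every library, but CPM also depends on length, and Sag was not compared per length. Cone arrestin Arr3 had 18 to 23 counts in stress and 3 to 17 counts in non-stress. Of 5 alpha-arrestins tested, Txnip, a thioredoxin-binding protein that limits glucose uptake, stood at 11.2 ± 0.708 CPM in stress and 8.79 ± 1.10 CPM in non-stress (log2 fold change 0.34, SE 0.11, edgeR adjusted p = 0.351). Arrdc2 had a log2 fold change of -0.13.

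Among 11 tested regulators of the kinases, 7 lay below 0. Git1, which binds GRKs and controls receptor uptake, stood at 184 ± 6.76 CPM in stress and 217 ± 25.2 CPM in non-stress (log2 fold change -0.24, SE 0.07, edgeR adjusted p = 0.346). Ncs1, a neuronal calcium sensor that inhibits receptor phosphorylation by GRKs, stood at 219 ± 4.15 CPM in stress and 248 ± 22.0 CPM in non-stress (-0.18, SE 0.06, edgeR adjusted p = 0.351). As for Grk2, their highest library was non-stress 2, at 246 CPM for Git1 and 272 CPM for Ncs1. Of 14 tested G protein beta and gamma subunits, which recruit GRK2 and GRK3, 8 lay above 0, with Gng10 at 0.16 and Gng13 at 0.17.

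In the uptake machinery of clathrin, AP2 and dynamin, 11 of 15 genes lay below 0, with a median log2 fold change of -0.04. Dnm1, the neuronal dynamin that pinches off vesicles, stood at 715 ± 26.0 CPM in stress and 802 ± 91.6 CPM in non-stress (-0.17, SE 0.07, edgeR adjusted p = 0.407), while the AP2 subunit gene Ap2s1 had 0.10. The 14 genes of receptor sorting and recycling spanned the narrowest range, -0.08 to 0.09. Of 7 genes listed as ubiquitin machinery linked to arrestins, Stambp had -0.13 and Nedd4 0.08. Among 13 kinases, phosphatases and other partners scaffolded by arrestins, the cyclic AMP phosphodiesterase gene Pde4d had 0.22 and the ERK1 gene Mapk3 -0.15, and the list's median was 0.0073.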

How the data were processed

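RNA-seq was carried out on 3 stress and 3 non-stress libraries of BALB/c anterior cingulate cortex, grouped by the labels. Per the labels' protocols, libraries were made from 100 ng of total RNA with a SMARTer low-input kit, which primes on poly(A) tails, and TruSeq construction. Per the submitters' processing notes, Trimmomatic 0.38, HISAT2 and StringTie were used with GRCm38 (mm10). The annotation and the treatment of multi-mapping reads were not given in the sources used here. The authors deposited whole-number counts per gene, which were used as deposited. The columns not mapped to a sample numbered 0.

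Genes were filtered with filterByExpr, scaled by TMM (factors 0.996 to 1.00) and tested with edgeR 4.0.16 (R 4.3.3, two-sided quasi-likelihood test, group as the single term, Benjamini-Hochberg threshold 0.05). A prior count of 2 was used for log2 CPM in correlations. A smooth trend (loess, span 0.5) used GENCODE sequence and length, known for 90.1% of genes tested. Alternatives were other factors, filters, DESeq2 1.42.0, limma-voom (limma 3.58.1), a replicate block and each library left out, and the trend was added after seeing the data. Tests were tried on simulated counts with the same dispersion for every gene and both groups. The non-stress libraries here differed more among themselves than the stress libraries, so that trial is no check on the results given. The sign-flip test planned for the order of levels is not given, since the same libraries set that order. The members and gene lists were chosen with earlier results of these data known. Named besides the members are the 2 genes of smallest p in each list and the 2 genes most correlated with each member of at least 5 CPM. Counting error is smallest for Grk2 and largest for Grk4, and counts may not be independent molecules.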

Additional observations from a re-analysis of the deposited data

How the results depend on the processing

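No member passed the adjusted threshold under any alternative run, and the median log2 fold change of the members stayed between -0.15 and -0.04 when any 1 library was left out. The number of genes past the threshold among all tested was 1 with edgeR, 127 with DESeq2, 2 with limma-voom, 2 with replicate number as a block and 3 with the trend on GC content and length removed. It ranged from 1 to 756 when 1 library was left out, with 756 without non-stress 1. The log2 fold change of Grk3 turned to 0.017 with that trend removed. That of Grk5 ranged from -0.03 to 0.23 over the libraries left out, at -0.03 without non-stress 2 or 3 (-0.0315 and -0.0251). The Arrb1 to Arrb2 ratio difference ranged from -0.14 to 0.0077. The cause of these changes was not tested. Libraries of the same replicate number shared no visible deviation: deviations from the group means correlated at 0.016, -0.030 and 0.021 for replicates 1, 2 and 3. This cannot show if they were collected or prepared together, which the labels used here do not say. With the replicate block, log2 fold changes were -0.18 for Grk2, 0.45 for Grk4 and -0.18 for Arrb1, and no member passed the adjusted threshold. Members with an unadjusted p under 0.05 then numbered 4 in place of 3, with Grk6 added, and the share of all genes at that level is not given for this setting. At 86 to 142 counts, Grk4 is limited by depth more than the other members.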
